A study of Mus musculus with 7 samples.

Results

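The 26S proteasome, the protease that degrades ubiquitin-tagged proteins, was followed at the transcript level in CD4 T cells sorted from tumours of mice carrying an orthotopic transplant of hepatocellular carcinoma. Genes were taken by name: all protein-coding entries beginning Psma, Psmb, Psmc, Psmd, Psme, Psmf or Psmg followed by a digit, without the immunoproteasome genes Psmb8, Psmb9 and Psmb10. This gave 46 of 13268 protein-coding genes in a table of 15588. Of these, 14 encode the 20S core, 17 the 19S regulatory particle, 6 activators or an inhibitor and 7 assembly chaperones. Psmc3ip and Psme3ip1 match by name only: Psmc3ip encodes a meiotic recombination factor that binds the ATPase Psmc3, and Psme3ip1 a partner of the activator Psme3. The tissue-restricted subunit genes Psma8 (testis) and Psmb11 (thymic epithelium) have no row among the genes analysed here.

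Both groups hold CD4 T cells labelled as tumour-infiltrating, taken on day 0 (2 libraries) or day 7 (5 libraries) of the model. No other treatment is given, and the labels state neither the tumour line, the strain, age or sex of the mice, the sort markers, nor what stood for tumour on day 0. Libraries are named by the last digit of their column (day 0 libraries 2 and 3, and day 7 libraries 1, 2, 3, 5 and 6), since those digits do not follow the sample titles. Total counts were between 21910818 and 28333855. Whether each library is a separate animal is not stated, and every p here reflects library-to-library spread alone, which may be technical. The T cell genes Cd3d, Cd3e, Cd3g and Cd4 together stood between 1931 and 2668 CPM (counts scaled to a fixed library size) in every library. Within this sum Cd3d, Cd3e and Cd3g overlapped between days, whereas Cd4 did not. Cd4 measured 387 and 403 CPM on day 0, and its day 7 range was 475 to 936 CPM. Its top values, 913 and 936 CPM, belonged to libraries 5 and 6 of day 7. Cd8a and Cd8b1 summed to 204.5 and 175.2 CPM in the day 7 libraries 5 and 6 and between 2.32 and 18.2 CPM elsewhere. The 6 myeloid markers summed to 250.4 and 131 CPM in those libraries and to between 7.82 and 31.0 CPM in the other 5. The 4 NK cell markers summed to 632 and 720.4 CPM on day 0 and to between 173 and 415 CPM on day 7. Nearly all of this was Klrb1c. Ncr1 did not share its fall, at 0.0416 and 6.64 CPM on day 0 and between 4.03 and 16.1 CPM on day 7. Klra4 and Klra8 were at 0 in both day 0 libraries and at most 1.83 and 3.70 CPM on day 7. The 4 B cell markers summed to 0.0416 and 2.61 CPM on day 0 and to between 11.8 and 33.3 CPM on day 7. The 5 hepatocyte markers summed to 25.2 and 23.4 CPM on day 0. On day 7 they summed to 47.7, 37.6 and 39.6 CPM in libraries 1, 2 and 3 and to 20.7 and 17.8 CPM in libraries 5 and 6. Of these markers Trf was lower in each day 7 library (between 3.97 and 17.8 CPM) than on day 0 (18.1 and 20.5 CPM). Alb stood at 7.15 and 1.86 CPM on day 0. At day 7 Alb was at 33.6, 23.3 and 28.4 CPM in libraries 1, 2 and 3 and at 0.761 and 0 CPM in libraries 5 and 6. Cd4, Trf, the CD8 sum, the B cell sum and, through Klrb1c, the NK cell sum separate the days. Their part in the results below was not tested. In bulk samples, fewer cells of a type and less RNA per cell cannot be told apart.

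The proteasome is built from a barrel-shaped 20S core and caps that open it. In the core, outer rings of alpha subunits gate the channel and inner rings of beta subunits carry the proteolytic sites, of the caspase-like (Psmb6), trypsin-like (Psmb7) and chymotrypsin-like (Psmb5) kinds. The 19S cap recognises ubiquitin chains, removes them and unfolds the substrate with a ring of ATPases, while the PA28 and PA200 activators open the core without ATP. Lymphocytes are known for replacing the catalytic beta subunits by the interferon-inducible immunoproteasome subunits, and PA28 is induced with them.

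From day 0 to day 7 log2 changes in the core and the 19S cap were mostly positive and all below 1 in size, and none of the 46 members passed edgeR's test. Day 7 was set against day 0 in all libraries, with CPM scaled by trimmed means (TMM). Of the 46 members, 0 were higher and 0 lower with edgeR's quasi-likelihood test at a Benjamini-Hochberg adjusted p below 0.05, against 1.54% of the 12929 genes tested (1.07% higher and 0.472% lower). The smallest adjusted p of any member was 0.124. At an unadjusted p below 0.05, 7 members were higher and 0 lower, where 10.1% of all genes tested passed and 6.29% were higher. DESeq2 called 3 members higher (Psma4, Psmb2 and Psmg4) and 0 lower, against 6.62% of genes called with that tool and 5.08% called higher. Limma-voom called 0 members, against 0.735% of genes.

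The direction was nevertheless shared by most members. A positive log2 change was measured for 38 of 46, against 53.1% of all genes tested and 50.8% of the 7099 genes with a mean of at least 20 CPM. The median log2 change was 0.19 over the members, 0.04 over all genes tested and 0.01 over the genes of at least 20 CPM. By class, 12 of 14 core genes were positive (median 0.24), 15 of 17 19S genes (median 0.20), 4 of 6 activators and inhibitor (median 0.07) and 5 of 7 assembly chaperones (median 0.03). The number with a positive log2 change was 38 under every scaling of the libraries tried and between 35 and 40 with 1 library left out. Without day 0 library 2 or 3 the median was 0.23 or 0.22 over the members and 0.18 over all genes tested, so their distance from other genes was smaller there. In 8 of 46 members every day 7 library was above both day 0 libraries, and in 0 below both, where 15.3% of all genes tested did not overlap, 7.53% above and 7.74% below.

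Summed over its 14 genes, the core gave 1304 and 1367 CPM on day 0 (libraries 2 and 3). At day 7 the sum was 1638, 1457, 1569, 1579.9 and 1469 CPM in libraries 1, 2, 3, 5 and 6. The 17 genes of the 19S cap summed to 1734 and 1623 CPM at day 0, and to 1998, 2005, 2004, 1923 and 1810.2 CPM in the day 7 libraries in the same order. Both sums were higher in each day 7 library than in either day 0 library, by a ratio of means of 1.16 for the core and 1.16 for the cap. The ratio of core to cap sums was 0.752 and 0.842 at day 0 and between 0.727 and 0.822 at day 7, so the groups overlapped in this balance. Activators and inhibitor summed to 942 and 861 CPM at day 0 and to between 816.5 and 1079 CPM at day 7, with the groups overlapping. No test was made of these sums, since the genes were chosen with results of these data known. Summed over the 15 proliferation genes listed beside them, the libraries stood at 955 and 892 CPM on day 0 and between 2185 and 2839 CPM on day 7, and the part of cell division in the small shift of the proteasome genes was not tested.

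**Figure D1:**
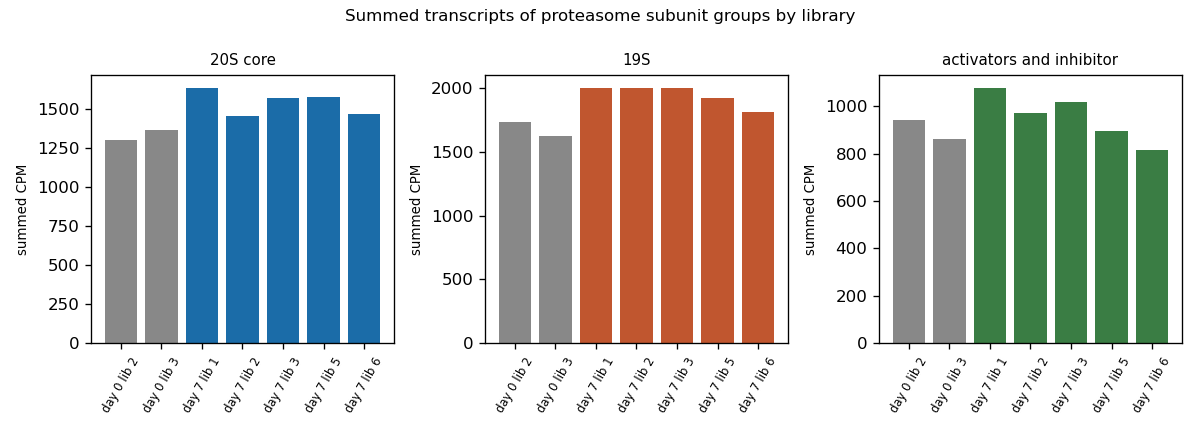
Summed CPM of the 14 core genes, the 17 genes of the 19S cap and the 6 activators and inhibitor in each library (grey bars, day 0; coloured bars, day 7; 1 bar a library, no error bars). The core and cap sums are higher in all 5 day 7 libraries than in both day 0 libraries, and the third group overlaps.

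How far each gene could have moved is given by its 95% interval, which was taken from the edgeR fit and not adjusted for the number of genes. For 36 of 46 members the interval lay within a change of 2-fold in either direction, as it did for 32.8% of all genes tested and 59.8% of those of at least 20 CPM. These 36 include all 7 alpha subunits, all 8 lid subunits, 5 of 6 19S ATPases and all 5 activator genes. The intervals that reached beyond 2-fold belonged to Psmb2, Psmb3, Psmb5, Psmc5, Psmf1 and to lowly expressed chaperones and Psmc3ip. The narrowest interval was that of Psme1, from -0.20 to 0.38 on the log2 scale.

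**Figure D2:**
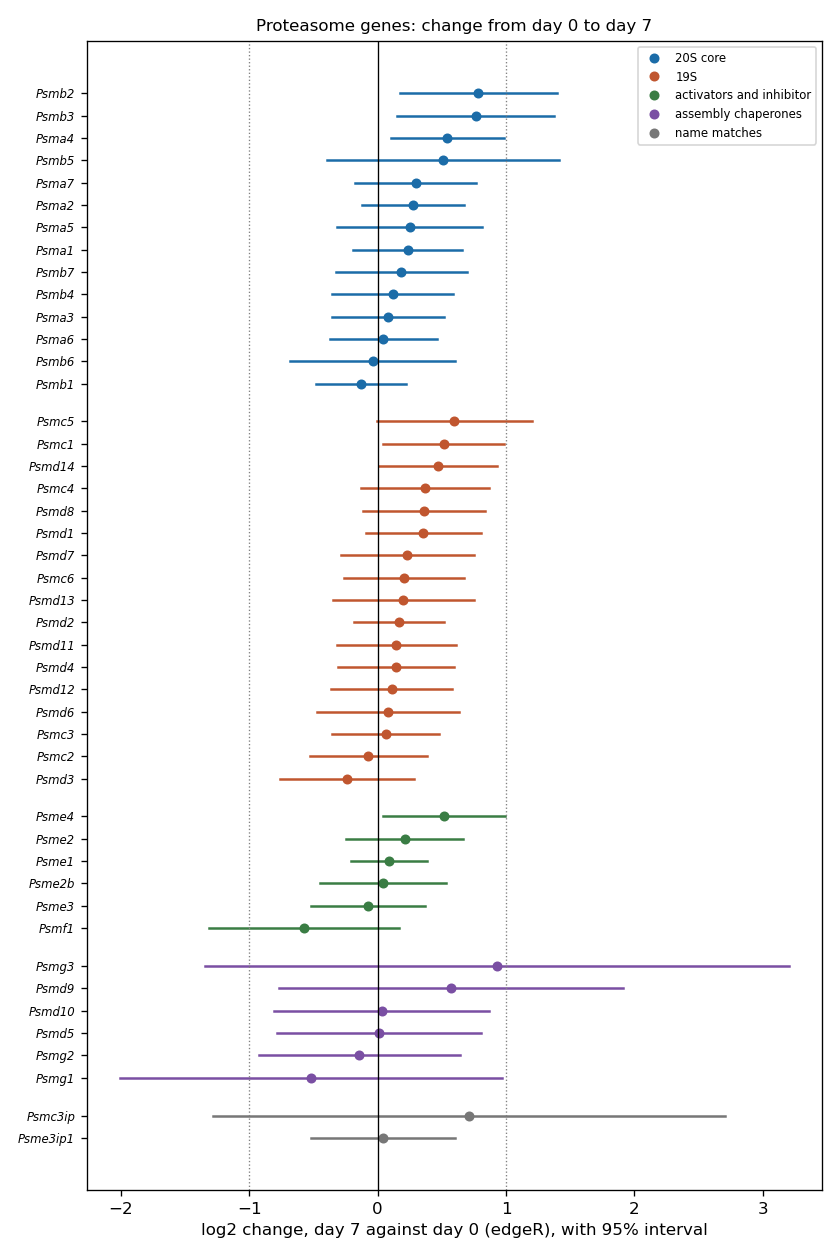
Log2 change from day 0 to day 7 (points) with its 95% interval from the edgeR fit (lines) for 45 members, coloured by class; dotted lines mark a change of 2-fold, and Psmg4, with no day 0 count, is not drawn. Most points lie between 0 and 1, with Psmb2 the highest of the core genes at 0.78 and Psmf1 the lowest of the activator and inhibitor genes at -0.57.

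Promoter sequence was set beside these values for the member with the highest log2 change among core, cap, activator and chaperone genes that has an entry in RefSeq's promoter table (GRCm38.p6), which holds 39 of the 46 members. Each line gives the 250 bases before the annotated start, 5′ to 3′ on the gene's strand, shown so that the motif letters can be read beside the values. Capitals mark matches on either strand to CCGGAA (the ETS core), CCAAT (the NF-Y box), GGGCGG (the GC box) or TGACNNNGC (the core of the antioxidant response element, which the proteasome regulator Nrf1, the product of Nfe2l1, binds). Psmb3, chr11:97703184-97703433, plus strand: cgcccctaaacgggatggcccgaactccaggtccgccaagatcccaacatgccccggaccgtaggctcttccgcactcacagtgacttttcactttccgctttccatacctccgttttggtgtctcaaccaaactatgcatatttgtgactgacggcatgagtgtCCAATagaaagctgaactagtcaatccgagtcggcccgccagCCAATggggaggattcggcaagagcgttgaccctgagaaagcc
Psmc5, chr11:106255935-106256184, plus strand: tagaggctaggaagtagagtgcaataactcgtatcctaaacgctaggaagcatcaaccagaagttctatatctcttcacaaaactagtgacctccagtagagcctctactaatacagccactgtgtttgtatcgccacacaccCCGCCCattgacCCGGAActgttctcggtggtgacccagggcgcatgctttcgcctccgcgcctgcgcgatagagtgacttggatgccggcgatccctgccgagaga
Psme4, chr11:30771525-30771774, plus strand: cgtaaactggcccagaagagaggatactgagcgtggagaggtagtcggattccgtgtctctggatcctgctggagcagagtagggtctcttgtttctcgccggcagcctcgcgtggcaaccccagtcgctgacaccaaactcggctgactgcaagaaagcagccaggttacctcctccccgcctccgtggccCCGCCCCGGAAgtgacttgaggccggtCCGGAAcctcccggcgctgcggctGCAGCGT
Psmg4, chr13:34162714-34162963, plus strand: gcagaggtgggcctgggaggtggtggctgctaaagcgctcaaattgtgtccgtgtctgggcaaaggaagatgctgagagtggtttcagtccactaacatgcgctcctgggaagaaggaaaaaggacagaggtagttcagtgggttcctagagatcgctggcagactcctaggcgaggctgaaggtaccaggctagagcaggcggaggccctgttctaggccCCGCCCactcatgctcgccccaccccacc
In Psme4 the GC box, read on the other strand, shares 1 base with the first ETS core, and the response element runs past the end of the stretch printed.

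Searched over 300 bases (these 250 and the 50 after the start), CCGGAA was found in 22 of 39 members (56.4%), against 31.3% of 10295 tested genes with an entry and 16.7% of all 27025 genes with one. Of the members carrying it, Psmc2, Psme3, Psmf1 and Psmg1 had a log2 change below 0. All other carriers were above 0, as most members were, and a link between motif and direction was not tested. The other motifs were found in shares close to those of the tested genes. TGACNNNGC was found in 6 of 39 members (15.4%, against 17% of tested genes): Psmb5, Psmb6, Psmc6, Psmd9, Psmd12 and Psme4. CCAAT was found in 14 members (35.9%, against 42.9%), GGGCGG in 23 (59%, against 65.1%), TATAAA in 3 (7.69%, against 8.99%) and the palindrome CACGTG in 4 (10.3%, against 11.6%). A match describes these letters and does not show binding.

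Among the alpha subunits, which form the gate of the core, all 7 had a positive log2 change and 0 passed. Psma3 and Psma6 did not keep that sign in every alternative: without day 0 library 2 they were at -0.10 and -0.14. Psma4 (Entrez 26441) measured 91.4 and 81.3 CPM on day 0 (libraries 2 and 3), then 125, 115, 150.2, 119.9 and 118 CPM on day 7 (libraries 1, 2, 3, 5 and 6). Every day 7 library was above both day 0 libraries, with the highest value in library 3. Its log2 change was 0.54 ± 0.21 (standard error), with an edgeR adjusted p of 0.315 and a DESeq2 adjusted p of 0.0410. Psma2 was also higher in each day 7 library (between 159.7 and 247 CPM) than on day 0 (155 and 152 CPM), with a log2 change of 0.28 ± 0.19. The other 5 alpha genes overlapped between days, with log2 changes from 0.05 (Psma6) to 0.30 (Psma7).

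Among the beta subunits without a proteolytic site, Psmb2 and Psmb3 had the largest log2 changes of the core. Psmb2 (Entrez 26445) stood at 35.4 and 42.8 CPM at day 0 and at 73.9, 56.7, 74.6, 58.8 and 73.0 CPM in the day 7 libraries in order. The days did not overlap, and the log2 change was 0.78 ± 0.30 (edgeR adjusted p = 0.284, DESeq2 adjusted p = 0.0245). Psmb3 (Entrez 26446), whose promoter above holds a pair of CCAAT boxes, stood at 33.9 and 61.1 CPM at day 0 and at 82.0, 84.3, 68.2, 102 and 67.3 CPM at day 7. The days did not overlap, but the day 0 libraries lay further apart than day 0 library 3 and the lowest day 7 library. The log2 change of 0.76 ± 0.30 (edgeR adjusted p = 0.304, DESeq2 adjusted p = 0.0656) went to 1.26 without day 0 library 3 and 0.40 without day 0 library 2. Psmb1 (217 ± 1.26 and 198 ± 26.3 CPM, mean ± SD over 2 day 0 and 5 day 7 libraries) and Psmb4 (103 ± 9.77 and 111 ± 21.3 CPM) had log2 changes of -0.13 ± 0.17 and 0.12 ± 0.23.

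The catalytic subunits did not move together. Psmb5 (Entrez 19173), the chymotrypsin-like subunit and the target of bortezomib, stood at 27.7 and 20.3 CPM at day 0 and at 40.2, 27.1, 16.6, 42.9 and 43.9 CPM at day 7. Day 7 library 3 was below both day 0 libraries and libraries 1, 5 and 6 were above them, so the log2 change of 0.51 ± 0.44 came with an edgeR adjusted p of 0.788. Psmb6 (Entrez 19175), the caspase-like subunit, stood at 62.8 and 62.5 CPM at day 0 and at 67.8, 49.9, 61.1, 88.5 and 38.0 CPM at day 7. Its day 7 values lay on both sides of the day 0 level (log2 change -0.04 ± 0.31). Psmb7 (Entrez 19177), the trypsin-like subunit, stood at 103.7 and 64.7 CPM at day 0 and at 101.5, 74.1, 94.5, 101.4 and 107 CPM at day 7. The day 0 pair was wider than the day 7 range, and the log2 change was 0.19 ± 0.25.

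**Figure D3:**
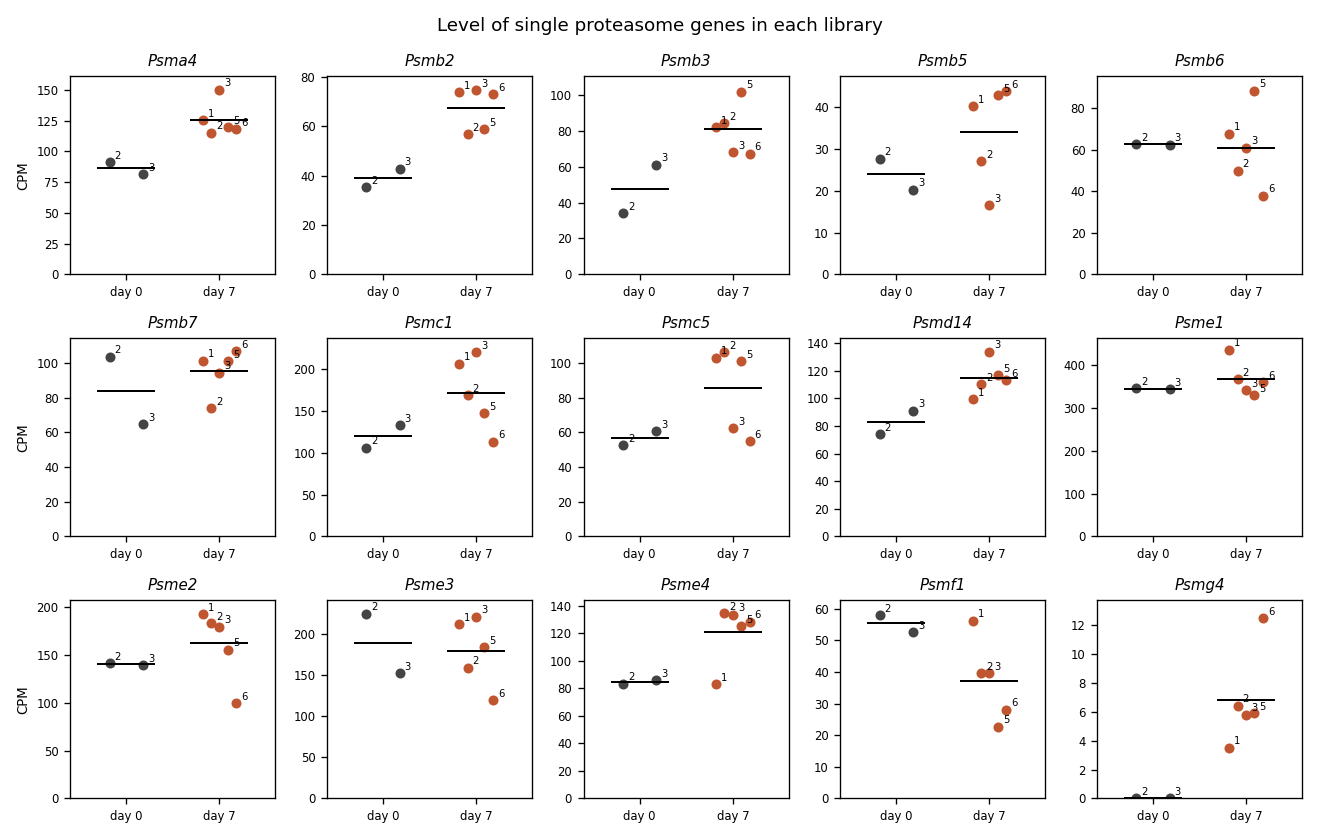
CPM of 15 members in each library (linear axes from 0; grey points, day 0; orange points, day 7; digits name the library; bars are group means). Psma4, Psmb2, Psmb3, Psmd14 and Psmg4 do not overlap between days, and the other 10 do.

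Each catalytic subunit was also set against the immunoproteasome subunit that takes its place, as the log2 ratio of counts within a library, which does not depend on scaling. Psmb5 to Psmb8 was at -3.53 and -3.93 on day 0 and at -3.29, -3.37, -4.60, -2.82 and -2.86 on day 7. Psmb6 to Psmb9 was at -0.56 and -0.58, and then at -0.56, -0.72, -0.34, -0.47 and -1.68. Psmb7 to Psmb10 was at 0.87 and -0.37, and then at 0.31, -0.68, -0.10, 0.56 and 0.46. All 3 ratios overlapped between days. Differences of the means (day 7 minus day 0) were 0.34, -0.18 and -0.14. The two-sided exact permutation p was 0.571, 0.810 and 0.762 over 21 splits, adjusted to 0.810 over the 3 pairs. The smallest p possible before adjustment is 0.0476, and 1 pair alone at that value would not pass 0.05 after it. A shift of a single ratio could therefore not have passed this test. Psmb8, Psmb9 and Psmb10 themselves had log2 changes of 0.11, 0.11 and 0.36 and 0 passed.

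**Figure D4:**
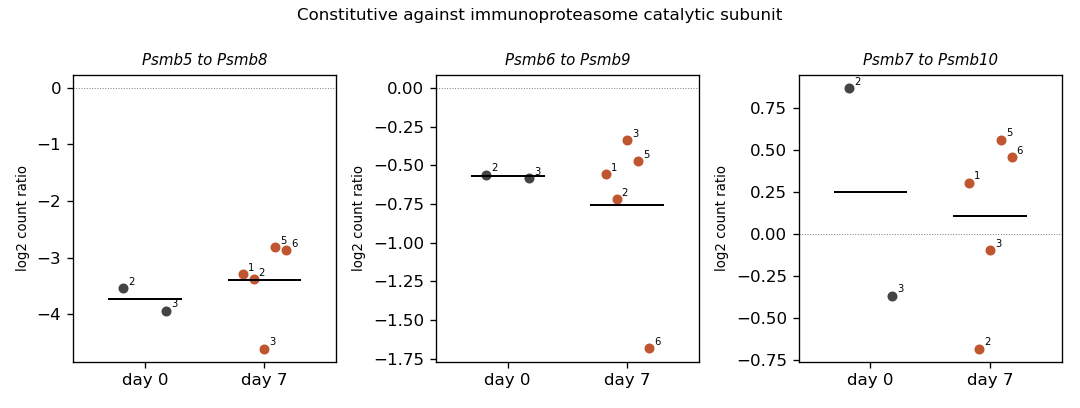
Log2 ratio of counts of each constitutive catalytic subunit gene to its immunoproteasome counterpart in each library (grey points, day 0; orange points, day 7; digits name the library; bars are group means; dotted lines mark equal counts). Day 7 values lie on both sides of the day 0 values for Psmb5 to Psmb8 and for Psmb6 to Psmb9, and within the wide day 0 pair, apart from library 2, for Psmb7 to Psmb10.

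In the base of the 19S cap, the 6 ATPases that unfold the substrate had log2 changes from -0.07 (Psmc2) to 0.60 (Psmc5). Psmc5 (Entrez 19184), the Rpt6 ATPase, stood at 52.6 and 60.6 CPM at day 0 and at 103, 106, 62.5, 101 and 55.1 CPM in the day 7 libraries in order. Libraries 1, 2 and 5 formed a high group and libraries 3 and 6 stayed near day 0 (log2 change 0.60 ± 0.29, edgeR adjusted p = 0.502). Psmc1 (Entrez 19179), the Rpt2 ATPase, whose tail helps to open the core, stood at 106 and 133 CPM at day 0 and at 207, 169, 220.3, 147 and 113 CPM at day 7. Only library 6 was not above both day 0 libraries (log2 change 0.52 ± 0.23, edgeR adjusted p = 0.411). Without day 7 libraries 5 and 6, a setting chosen after the data were seen, the log2 change of Psmc1 was 0.72 (edgeR adjusted p = 0.0749). The scaffold subunits Psmd1 (Rpn2) and Psmd2 (Rpn1) and the ubiquitin receptor Psmd4 (Rpn10) had log2 changes of 0.36 ± 0.22, 0.17 ± 0.17 and 0.14 ± 0.22. Of these Psmd1 did not overlap between days (94.8 and 82.8 CPM, against 101.9 to 126 CPM).

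In the lid, 7 of 8 genes had a positive log2 change. Psmd14 (Entrez 59029), the Rpn11 deubiquitinase that cuts the ubiquitin chain from the substrate, stood at 74.3 and 91.2 CPM at day 0 and at 99.5, 110.2, 134, 117 and 114 CPM at day 7. The days did not overlap (log2 change 0.47 ± 0.22, edgeR adjusted p = 0.472, DESeq2 adjusted p = 0.129). Psmd8 (Rpn12) was likewise higher in each day 7 library, at 84.7 and 86.2 CPM and then between 91.3 and 141 CPM (log2 change 0.36 ± 0.23). Psmd3 (Rpn3) had the one negative value, -0.24 ± 0.25, with 52.8 CPM in day 7 library 6 and between 76.1 and 95.9 CPM in the other libraries. The remaining lid genes Psmd6, Psmd7, Psmd11, Psmd12 and Psmd13 overlapped, with log2 changes from 0.08 to 0.23.

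The activators differed from each other. Psme1 (Entrez 19186), the alpha subunit of the interferon-inducible activator PA28, was the most abundant member per length and stood at 347 and 345 CPM at day 0 and at 437, 368, 342, 331 and 362 CPM at day 7. Day 7 values fell on both sides of day 0 (log2 change 0.09 ± 0.14, edgeR adjusted p = 0.974). Its partner Psme2 (Entrez 19188) stood at 141 and 139 CPM and then at 193, 184, 179.8, 156 and 99.6 CPM, so library 6 alone was below day 0 (log2 change 0.21 ± 0.22, edgeR adjusted p = 0.874). Psme3 (Entrez 19192), the nuclear activator PA28 gamma, stood at 225 and 153 CPM at day 0 and between 120.01 and 221 CPM at day 7, inside and below the day 0 pair (log2 change -0.08 ± 0.22).

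Psme4 (Entrez 103554), the PA200 activator known for the degradation of acetylated histones, stood at 83.4 and 85.8 CPM at day 0, then 83.0, 135, 133, 125 and 128 CPM on day 7 (libraries 1, 2, 3, 5 and 6). Library 1 was at the day 0 level and the other 4 were well above it. The log2 change was 0.52 ± 0.23 (edgeR adjusted p = 0.420, DESeq2 adjusted p = 0.141). Psmf1 (Entrez 228769), which encodes the proteasome inhibitor PI31, had the lowest log2 change of the 46. It stood at 58.1 and 52.7 CPM at day 0 and at 56.2, 39.7, 39.7, 22.7 and 28.1 CPM at day 7. Library 1 was inside the day 0 pair, and the lowest values were those of libraries 5 and 6, the ones with the most CD8 and myeloid transcripts (log2 change -0.57 ± 0.36, edgeR adjusted p = 0.636). Without libraries 5 and 6, a setting chosen after the data were seen, the log2 change of Psmf1 was -0.31 (edgeR adjusted p = 0.886), and the part of other cells in it was not tested.

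Counts of Psme2 are uncertain because of a second locus, Psme2b (Entrez 621823), an intronless copy on another chromosome. In GENCODE M21 (GRCm38) the coding sequences of both are 717 bases long and differ at 5 positions (99.3% identity). Of the stretches of 50 bases in the Psme2b coding sequence, 69.5% occur unchanged in Psme2, of those of 100 bases 49.7% and of those of 150 bases 32.9%. Psme2b stood at 87.0 and 84.9 CPM at day 0 and between 74.9 and 103 CPM at day 7, and how reads were shared between the copies is not given in the sources used here.

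The assembly chaperones were the most weakly expressed class and the least precise. Psmg4 (Entrez 69666), a member of the PAC family that helps to build the alpha ring, had 0 counts in both day 0 libraries and 95, 162, 136, 156 and 276 counts (3.51, 6.44, 5.81, 5.93 and 12.5 CPM) in day 7 libraries 1, 2, 3, 5 and 6. All 5 day 7 libraries had counts, with library 6 the highest and library 1 the lowest. Of all genes tested, 796 (6.16%) had 0 counts on day 0, and 49 of these had counts in every day 7 library. In 10 of the 796, Psmg4 included, every day 7 library was at or above the lowest Psmg4 level. A count of 0 allows up to 3 counts over the day 0 group, or 0.0576 CPM, if each count is independent. On that footing the day 7 mean of 6.84 ± 3.35 CPM was at least 118.6-fold higher and the lowest day 7 library at least 60.96-fold higher, for counting error only. Counts of 2 to 200 were even in 72.4% to 78.1% of cases, and if counts came in pairs these bounds would be lower, which was not tested. Psmg4 did not pass with edgeR (adjusted p = 0.124) or limma-voom (adjusted p = 0.212) and passed with DESeq2 (adjusted p = 6.69e-06).

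The related chaperones did not show this pattern. Psmg1, which pairs with Psmg2, stood at 12.1 and 22.3 CPM at day 0 and between 3.39 and 21.1 CPM at day 7. Psmg2 stood at 35.3 ± 4.97 and 32.0 ± 6.23 CPM. Psmg3, which pairs with Psmg4, stood at 5.24 and 5.64 CPM and then at 8.39, 9.69, 23.6, 5.93 and 4.25 CPM, with overlap. The chaperones of the 19S base, Psmd5, Psmd9 and Psmd10 (gankyrin), had log2 changes of 0.01 ± 0.39, 0.57 ± 0.65 and 0.03 ± 0.41. The median log2 change of the 7 chaperones is the same with Psmg4 at its bound, since Psmg4 is the highest either way. Of the name matches, Psmc3ip was at 6.81 ± 2.28 and 11.2 ± 5.76 CPM and Psme3ip1 at 62.5 ± 2.45 and 64.3 ± 5.92 CPM.

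Levels of the subunits were compared per kilobase of transcript (CPM per kb, with the median length of GENCODE M21 principal transcripts), a measure that depends on which transcript the cells use. In day 7 libraries the core genes ran from 38.0 ± 13.2 CPM per kb for Psmb5 to 135 ± 17.5 for Psma6, with a median of 78.4. The 19S genes ran from 36.5 ± 3.24 for Psmd1 to 107.6 ± 27.4 for Psmc1, with a median of 60.1, so the ranges of core and cap overlapped. Psme1 stood far above all other members at 331 ± 37.2 CPM per kb, followed by Psme2 at 169 ± 39.2. Psmf1 (14.4) and Psme4 (18.6 ± 3.33) were at the lower end, and the 7 chaperones lay between 6.73 (Psmd9) and 30.2 (Psmg2). Among the counterparts, Psmb8 was at 209 ± 33.9 CPM per kb, more than its constitutive partner Psmb5. Psmb9 at 74.6 ± 15.9 and Psmb6 at 48.9 ± 15.3 lay closer together, and Psmb10 at 68.5 ± 15.4 and Psmb7 at 82.5 ± 11.1 lay within the spread of the libraries.

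Other genes of the pathway were read from the same fit and did not pass either: 0 of 9 further subunits and maturation factors, 0 of 6 regulators, 0 of 6 ubiquitin and E1 genes and 0 of 10 shuttle and p97 genes. Their median log2 changes were 0.13, -0.03, -0.11 and 0.12. Nploc4, a cofactor of the unfoldase p97, came closest. It stood at 35.1 and 60.01 CPM at day 0 and at 74.1, 107.8, 97.1, 83.4 and 121 CPM in the day 7 libraries in order, without overlap (log2 change 1.02 ± 0.28, edgeR adjusted p = 0.0756, DESeq2 adjusted p = 0.00328). Its call turned on the filter and on single day 0 libraries: the edgeR adjusted p was 0.0159 with no filter, 0.0288 without day 0 library 3 (log2 change 1.47) and 0.605 without day 0 library 2 (log2 change 0.69). Ngly1, the glycanase that edits the proteasome regulator Nrf1, was also higher in each day 7 library, at 48.6 and 75.6 CPM and then between 86.6 and 125 CPM (log2 change 0.79 ± 0.26, edgeR adjusted p = 0.166, DESeq2 adjusted p = 0.0155). Nfe2l1, which encodes Nrf1 itself, was at 109.8 and 100.5 CPM as group means (log2 change -0.13).

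On the lower side, Zfand2a, an arsenite-inducible proteasome-binding protein, stood at 44.2 ± 1.65 CPM on day 0 (2 libraries) and then at 21.6, 41.3, 19.6, 22.1 and 20.6 CPM, lower in each day 7 library (log2 change -0.82 ± 0.40, edgeR adjusted p = 0.496). Txnl1, a thioredoxin-like protein of the 19S cap, stood at 53.4 and 69.9 CPM and then between 72.0 and 109 CPM, without overlap (log2 change 0.54 ± 0.26, edgeR adjusted p = 0.480). The small lid subunit Sem1 overlapped between days (44.5 ± 10.7 and 59.8 ± 13.5 CPM, log2 change 0.43 ± 0.32), as did the E1 enzyme Uba6 (32.9 ± 11.1 and 41.6 ± 9.80 CPM, log2 change 0.34 ± 0.38). The p97 cofactor Nsfl1c was at 57.7 and 60.1 CPM and then between 60.2 and 76.7 CPM (log2 change 0.22 ± 0.27, edgeR adjusted p = 0.923).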

How the data were processed

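RNA was taken with TRIzol and made into Illumina libraries, per the labels' protocols. Per the submitters' processing notes the tools were featureCounts 1.5.0-p3, HISAT2 2.0.5 and CASAVA 1.8, with no settings stated. The authors deposited raw counts, 1 whole number per gene and library. Build, gene models and strandedness, not given in the sources used here, leave counts of overlapping or near-identical genes uncertain. Columns were assigned to day 0 or day 7 by name, and to no single sample.

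Low genes were removed by filterByExpr. TMM factors lay between 0.988 and 1.01, and CPM use them. Day 7 was tested against day 0 with edgeR 4.0.16 in R 4.3.3 (glmQLFit, robust, and glmQLFTest); p-values were adjusted by Benjamini-Hochberg over all 12929 genes, and 0.05 was the threshold. A standard error is the size of the log2 change over the square root of F. Counts of 2 to 200 were even in 72.4% to 78.1% of cases, and why was not tested. Alternatives were RLE, upper-quartile and no factors, no filter or a mean of at least 5 CPM, DESeq2 1.42.0, limma-voom (limma 3.58.1), each library left out, and day 7 libraries 5 and 6 left out (added after seeing the data). The edgeR script was tested on simulated data. Members and lists were chosen with earlier results of these data known. The rule for genes given by library took the 3 largest changes of the core, of the cap and of the activators and inhibitor, the catalytic subunits, Psmd14, Psme1 to Psme4 and Psmf1, and the 2 largest changes of each pathway list. A gene that this rule names is not reported here. Psmg4 and the other members named were chosen after their values were seen.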

Additional observations from a re-analysis of the deposited data

Results flagged for a closer look

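In groups of 5 libraries, the highest or lowest day 7 value stood apart from the other 4 (Dixon's ratio above 0.71) in 6 of 53 groups of values examined. For independent, normally distributed values chance gives about 1 in 20. The groups here come from the same 5 libraries, so no excess over that rate can be read from them. Psma3 was highest in library 5, at 153 CPM against 112 to 124 CPM in the others. Psma4 was highest in library 3, at 150.2 CPM against 115 to 125 CPM. Psmg3 was highest in library 3, at 23.6 CPM against 4.25 to 9.69 CPM. Psmd12 was lowest in library 2, at 76.8 CPM against 106 to 116 CPM. Psme4 was lowest in library 1, at 83.0 CPM against 125 to 135 CPM. The log2 count ratio of Psmb6 to Psmb9 was lowest in library 6, at -1.68 against -0.72 to -0.34.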

How the results depend on the processing

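The count of members called by an adjusted p was 0 higher and 0 lower under every alternative run except DESeq2, which called 3 higher. The median log2 change lay between 0.21 and 0.29 for the core, 0.18 and 0.25 for the 19S cap and 0.01 and 0.16 for activators and inhibitor. For the assembly chaperones it ranged from -0.073 to 0.59 with 1 library left out. Where a day 0 library is left out, the lone day 0 library is assumed to vary like the others. With 1 library left out, the change in Psmb5 to Psmb8 ranged from 0.14 to 0.65, in Psmb6 to Psmb9 from -0.29 to 0.050, in Psmb7 to Psmb10 from -0.76 to 0.48, and in single genes from -0.21 to 0.10 for Psmb6, -0.11 to 0.57 for Psmb7 and -0.32 to 0.23 for Psme3. Without day 7 libraries 5 and 6, Psmb5 to Psmb8 was at -0.022, Psmb6 to Psmb9 at 0.034 and Psme3 at 0.050. The cause of these changes was not tested. Of all 46 members, 14 changed sign in at least 1 alternative: 4 of the core, 4 of the cap, 2 activators and 4 chaperones. No paired analysis was possible because the columns do not carry the replicate numbers of the sample titles. With 2 libraries on day 0, the 95% interval lay within 2-fold for 36 of 46 members.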
